A study of Mus musculus with 6 samples.

Results

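The mevalonate arm is the stretch of isoprenoid synthesis that turns acetyl-CoA into farnesyl diphosphate, and it was examined here through the genes Acat2, Hmgcs1, Mvk, Pmvk, Mvd, Idi1 and Fdps, with Ggps1 as the next prenyl diphosphate synthase. The 8 genes were listed by symbol, and a gene was measured where an array row carried its symbol and no other. Of the 8 listed genes, 7 had such a row, out of 30702 genes in all, and each had 1 row. Acat2, the cytosolic thiolase that opens the arm, is not analysed here. RNA came from mouse TH17-skewed cells, helper T cells driven toward IL-17 secretion, and was hybridised to Affymetrix arrays. The control group held 3 arrays of cells cultured for 3 days with glutamine, and the other group held 3 arrays of cells cultured for the same time without it. All 6 cultures began from sorted naive CD4+ T cells that were CD25-, CD62L+ and CD44-, were stimulated with antibodies to CD3 and CD28, and grew in IMDM containing 10% FBS. The cytokines were IL-23 (20 ng/ml), IL-6 (20 ng/ml) and TGFb (1.25 ng/ml), and antibodies (10 ug/ml each) neutralised IL-12, IL-4 and IFNg. No strain, genotype or age is given. The arrays are labelled as biological replicates; whether they came from separate mice is not stated, and each p-value therefore covers array-to-array spread alone, which may be technical.

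The arm runs in a fixed order. Acetyl-CoA is joined into HMG-CoA, which is turned into mevalonate, 2 kinases and a decarboxylase turn mevalonate into isopentenyl diphosphate, an isomerase makes its allylic partner, and farnesyl diphosphate synthase condenses these units. Farnesyl diphosphate then feeds sterols through squalene and non-sterol products such as geranylgeranyl groups, dolichol and ubiquinone. Activated T cells need these products for new membranes and for the prenylation of small GTPases, and transcription of the arm is controlled by SREBP-2, a membrane-bound factor that is released when sterols are scarce and that commonly acts beside NF-Y, a factor that binds CCAAT boxes.

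The stretches below lie upstream of the starts of 5 measured members, all lower without glutamine. The stretches differ in length, and that of Ggps1 ends 50 bases before the start. The 5 genes include Hmgcs1, the member with the largest fall, and Ggps1, the one with the smallest. The windows of Pmvk are not printed. RefSeq windows on GRCm38.p6, from 250 bases before to 50 after each gene start, were held for 6 of the 7 measured members, all but Fdps. Capitals mark CCAAT on either strand (ATTGG is its reverse complement) and, in Hmgcs1 alone, the sterol regulatory element core TCACNCCAC.
Hmgcs1 (chr13:119690171-119690350, plus strand): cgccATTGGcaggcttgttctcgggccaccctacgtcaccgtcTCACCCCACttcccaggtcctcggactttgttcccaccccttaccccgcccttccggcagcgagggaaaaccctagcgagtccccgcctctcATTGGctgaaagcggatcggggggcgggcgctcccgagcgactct
Mvk (chr5:114444089-114444268, plus strand): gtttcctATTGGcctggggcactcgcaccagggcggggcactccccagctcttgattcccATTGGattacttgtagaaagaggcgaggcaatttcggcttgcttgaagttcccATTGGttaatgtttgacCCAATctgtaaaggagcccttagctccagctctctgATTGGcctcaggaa
Mvd (chr8:122443423-122443492, minus strand): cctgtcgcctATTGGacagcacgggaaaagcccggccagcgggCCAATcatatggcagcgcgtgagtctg
Idi1 (chr13:8885531-8885605, plus strand): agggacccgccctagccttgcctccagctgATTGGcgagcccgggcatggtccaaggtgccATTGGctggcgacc
Ggps1 (chr13:14063538-14063693, minus strand): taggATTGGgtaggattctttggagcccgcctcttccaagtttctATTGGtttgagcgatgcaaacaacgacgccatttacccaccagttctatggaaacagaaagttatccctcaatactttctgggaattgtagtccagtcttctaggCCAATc
Both strands were searched for these motifs, for the GC box GGGCGG and for the E-box CACGTG, and no motif contains another. CCAAT was found in at least 1 window of each of the 6 members, against 41.1% of 27025 genes with a window (37.4% of all 32851 windows). Pmvk has 2 windows, of which 1 holds CCAAT, and the window of Acat2, which was not measured, holds 0. Mvk held 5 copies, and Hmgcs1 held 4, of which 2 lie in the stretch shown. The sterol element core was found in 1 of the 6, Hmgcs1, where it begins 137 bases before the start, against 1.44% of genes. The GC box was present in 4 of the 6 (38.2% of genes) and the E-box in 0 of the 6 (8.09% of genes). Such matches describe letters in a window, not binding.

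Transcripts of every measured gene of the arm were lower without glutamine, but by unequal amounts. On the log2 scale the change was -3.16 for Hmgcs1, between -2.52 and -1.94 for Fdps, Idi1, Pmvk and Mvd, -1.08 for Mvk and -0.85 for Ggps1. All 7 passed an adjusted p of 0.05 (limma, Benjamini-Hochberg adjustment over all genes) and 0 of 7 were higher. Among all genes 22.3% were called, 13.0% lower and 9.30% higher. The groups did not overlap for any of the 7, whereas 18.8% of all genes lay lower without overlap and 25.0% higher. Of the 7, 6 fell by at least 1 log2, as did 2.84% of all genes, and 3 by at least 2 log2, as did 0.521%. The median change of the 7 was -1.98, and that of all genes was 0.060. In cultures, fewer cells of a type and less RNA per cell cannot be told apart. The plot of levels by array shows the 7 genes, and the plot of all changes shows where they lie among the 30702 genes.

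**Figure D1:**
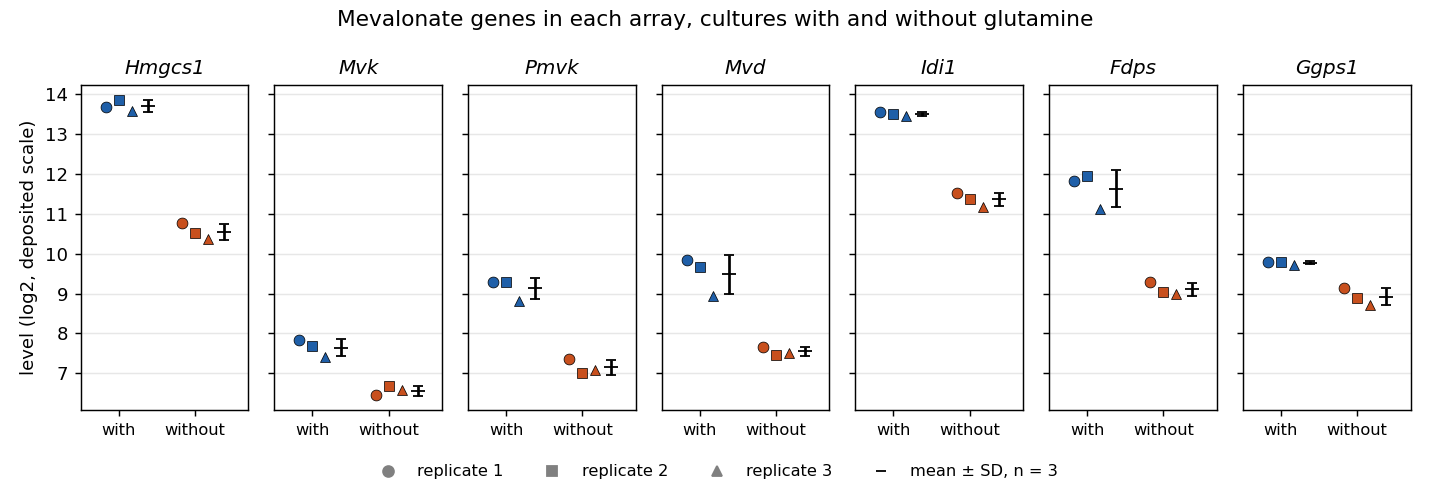
Level of each of the 7 genes on each array (log2, deposited scale), with 3 arrays from cultures with glutamine (blue) and 3 without (orange); symbols give the replicate and bars the mean ± SD. In each panel the 3 arrays without glutamine lie below the 3 with it; levels are not comparable between panels because each gene has its own probes.

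**Figure D2:**
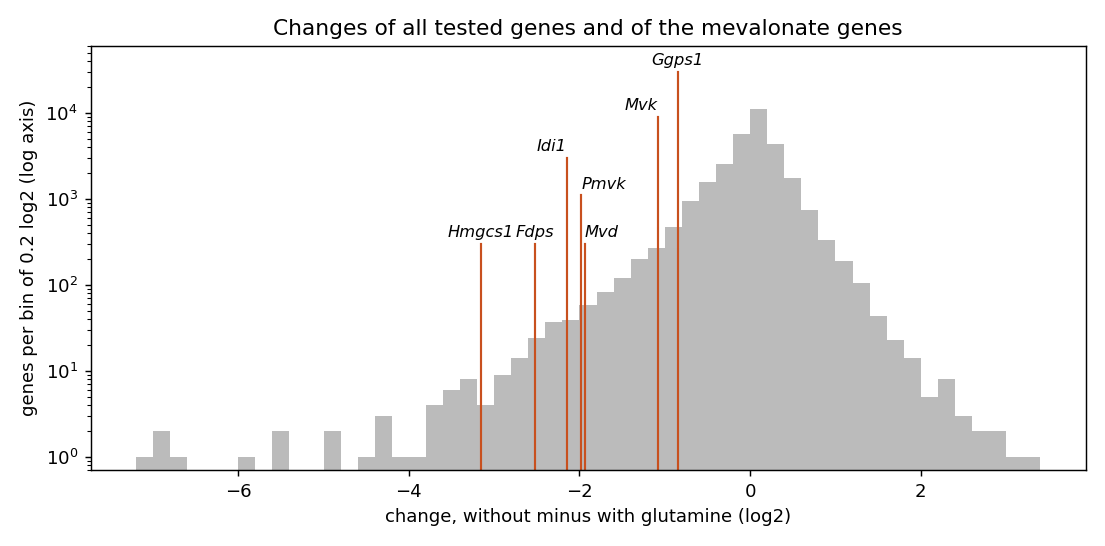
Number of genes per bin of change (0.2 log2 wide, log count axis), without minus with glutamine, over all 30702 genes, with a vertical line at the change of each mevalonate gene; line height has no meaning. Hmgcs1 lies at -3.16, in the thin left tail, and Ggps1 at -0.85.

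Hmgcs1 encodes the cytosolic HMG-CoA synthase, which commits acetyl units to the arm. Its level was 13.67, 13.86 and 13.57 log2 on the 3 arrays with glutamine and 10.76, 10.51 and 10.36 without. The lowest array with glutamine stood 2.81 above the highest without, and the group means were 13.7 ± 0.15 and 10.54 ± 0.20 (SD, n = 3). The change of -3.16 had a standard error of 0.13 and a 95% interval of -3.46 to -2.86 (adjusted p = 8.84e-05, limma). Only 33 of the 30702 genes had a larger fall.

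The next measured steps are catalysed by the products of Mvk, Pmvk and Mvd. Mvk encodes mevalonate kinase, which adds the first phosphate. It stood at 7.84, 7.68 and 7.41 log2 with glutamine and at 6.45, 6.68 and 6.57 without, a change of -1.08 (standard error 0.12, 95% interval -1.38 to -0.78, adjusted p = 0.00206, limma). This was the least bright of the 7 rows without glutamine relative to the array median, yet still 2.21 above it. Pmvk encodes phosphomevalonate kinase, which adds the second phosphate. Its levels were 9.30, 9.28 and 8.81 with glutamine and 7.36, 7.0 and 7.07 without, and all arrays without glutamine lay at least 1.45 below the lowest control array. Pmvk changed by -1.98 (standard error 0.16, 95% interval -2.37 to -1.60, adjusted p = 0.000631, limma). Mvd encodes the decarboxylase that yields isopentenyl diphosphate. It had 9.85, 9.67 and 8.94 with glutamine and 7.67, 7.47 and 7.50 without. The control array of replicate 3 was well below the other two, so Mvd had the widest control spread of the 7 (9.48 ± 0.48, SD, n = 3), while the group without glutamine was narrow (7.55 ± 0.11). Its change was -1.94 (standard error 0.23, 95% interval -2.48 to -1.39, adjusted p = 0.00225, limma), and -2.21 without that control array.

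Idi1 encodes the isomerase that interconverts isopentenyl and dimethylallyl diphosphate, the building blocks of all isoprenoids. Its control arrays were nearly equal, at 13.56, 13.49 and 13.45 log2, and the arrays without glutamine stood at 11.52, 11.38 and 11.17. The gap between the groups was 1.94, beside an SD of 0.05 with and 0.17 without glutamine (n = 3 each). Idi1 changed by -2.15 (standard error 0.10, 95% interval -2.39 to -1.91, adjusted p = 0.000106, limma).

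Fdps and Ggps1 encode the prenyl synthases that extend these units, Fdps to farnesyl diphosphate and Ggps1 from there to geranylgeranyl diphosphate, the donor for the prenylation of many small GTPases. Fdps stood at 11.83, 11.95 and 11.11 log2 with glutamine and at 9.29, 9.05 and 8.98 without. Replicate 3 was again the low control array, and the groups stayed 1.82 apart. The change of Fdps was -2.52 (standard error 0.22, 95% interval -3.06 to -1.99, adjusted p = 0.000853, limma), and -2.78 without that array. Ggps1 stood at 9.80, 9.78 and 9.72 with glutamine and at 9.15, 8.89 and 8.71 without. Here the control group was the tight one (SD 0.04) and the arrays without glutamine were spread (SD 0.22), with 0.56 between the groups. Ggps1 changed by -0.85 (standard error 0.12, 95% interval -1.13 to -0.57, adjusted p = 0.00407, limma), and 1213 genes had a larger fall.

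On the array scale Fdps fell further than Ggps1. The level of Fdps minus that of Ggps1 on the same array, a quantity of which only the change has meaning, was 2.02, 2.18 and 1.39 log2 with glutamine and 0.14, 0.16 and 0.27 without. All 3 arrays without glutamine lay below all 3 controls, and the difference between the changes was -1.67 (95% interval -2.06 to -1.29, adjusted p = 2.43e-08, limma on every gene minus Ggps1, in which 1.89% of genes were called lower and 89.6% higher). That p is too small, because all genes in this fit share the error of the Ggps1 row. Without moderation across genes the interval was -2.35 to -1.0 and the adjusted p 0.00821 (limma's unmoderated statistic), and an exact two-sided permutation test over the arrays gave p = 0.1, the smallest that 3 against 3 allows.

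In order of fall the genes ran Hmgcs1, Fdps, Idi1, Pmvk, Mvd, Mvk and Ggps1. For each of the 21 pairs the difference between the 2 changes was estimated from the per-array differences, with a 95% interval on 4 residual degrees of freedom, not adjusted for the number of pairs. The interval excluded 0 for 16 pairs. Of the 6 neighbours in the order, 2 were separated in this way, Hmgcs1 from Fdps (-0.63, interval -1.18 to -0.09) and Mvd from Mvk (-0.86, interval -1.42 to -0.29). The other neighbours were not separated. The interval was -1.06 to 0.31 for Fdps against Idi1, -0.61 to 0.28 for Idi1 against Pmvk, -0.41 to 0.33 for Pmvk against Mvd and -0.80 to 0.33 for Mvk against Ggps1. On the array scale Mvk and Ggps1 each fell less than each of the other 5 genes. Each gene has its own probes and the stretch of the scale is unknown, so this is an order of array signals. Whether transcript loss followed the same order was not tested. The interval of Hmgcs1 against Fdps reached 0 when with glutamine replicate 2 or any of the arrays without glutamine was left out, and that of Mvd against Ggps1 when with glutamine replicate 2 or without glutamine replicate 1 or 2 was. Leaving out with glutamine replicate 3 separated Fdps from Idi1, for 17 pairs in all.

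**Figure D3:**
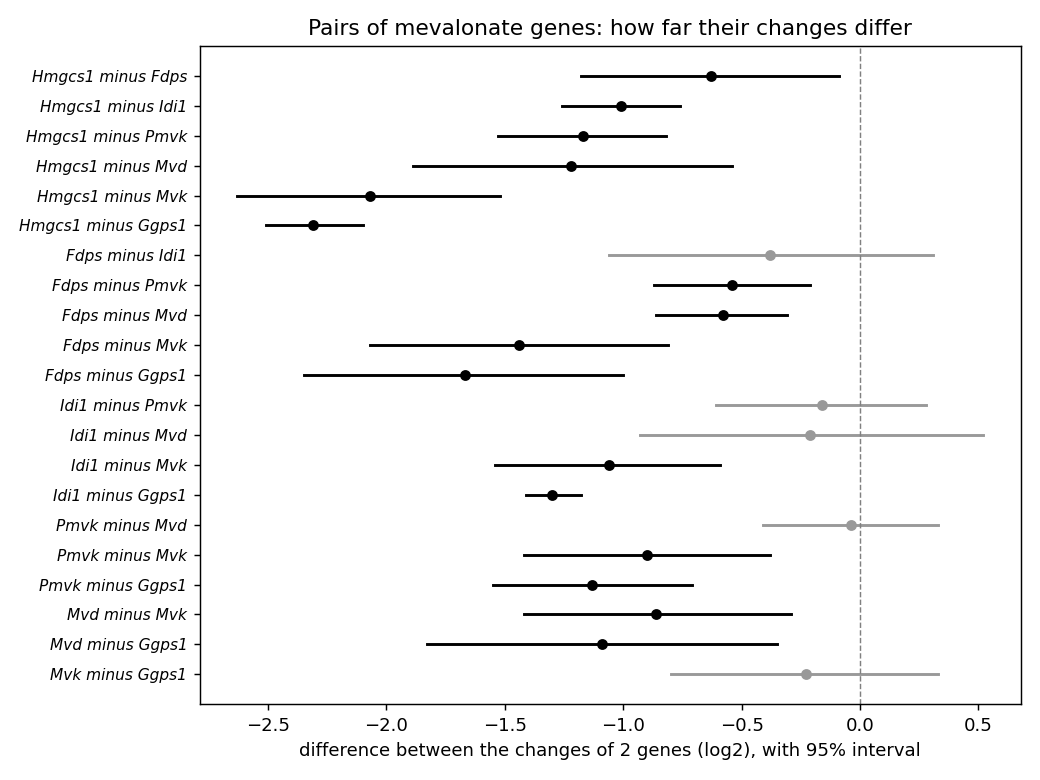
Difference between the changes of the first and the second gene of each pair (log2), with its 95% interval from the 6 arrays, for the 21 pairs of the 7 genes; black where the interval excludes 0 (16 pairs) and grey where it holds 0. Pairs with Mvk or Ggps1 as the second gene lie between -2.31 and -0.86, except Mvk against Ggps1 at -0.23.

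Within each group 1 array was the lowest or the highest for most of the genes, though not always far from the others. With glutamine, replicate 3 was the lowest array for 7 of the 7 genes, with deviations from the group mean from -0.55 for Mvd and -0.52 for Fdps to -0.05 for Idi1 and Ggps1. Over all genes that array was the lowest of its group in 39.1%, and over genes above the median level in 47.5%. It was also the lowest control array for 33 of the 50 measured genes around the arm. Without glutamine, replicate 1 was the highest array for 6 of the 7, all but Mvk, against 37.9% of all genes and 47.5% of genes above the median level. The deviations there reached 0.24 for Ggps1.  Without with glutamine replicate 3 the changes of Fdps and Mvd were those given above, that of Mvk was -1.20 and that of Ggps1 -0.87. Without without glutamine replicate 1 the change of Ggps1 was -0.97.

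**Figure D4:**
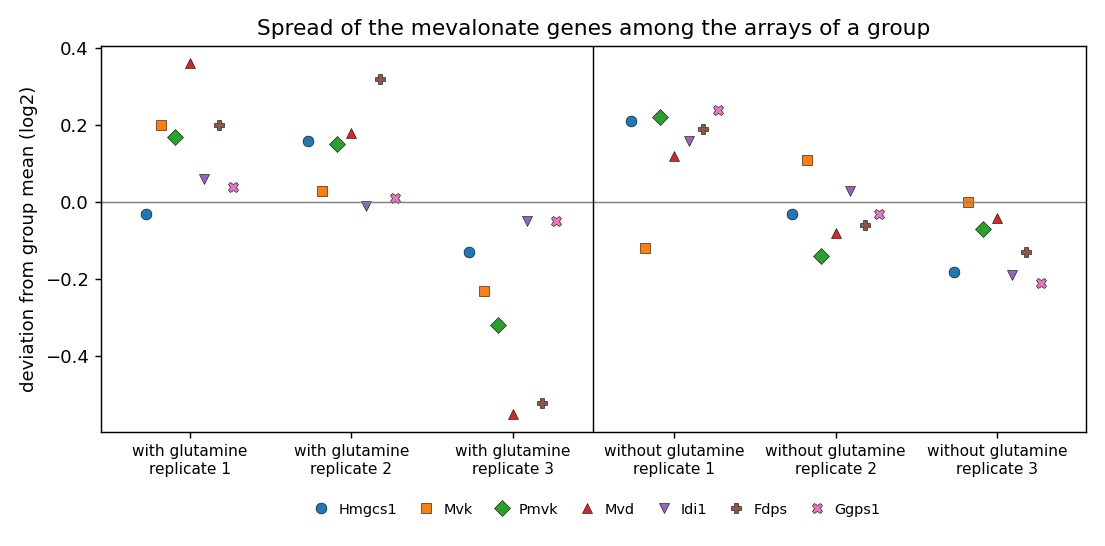
Deviation of each of the 7 genes from its group mean (log2) on each of the 6 arrays, with 1 symbol per gene. Replicate 3 with glutamine lies below 0 for all 7 genes and replicate 1 without glutamine above 0 for all but Mvk.

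Genes for related enzymes were also measured. Of 4 measured genes for other enzymes and isoenzymes, 3 fell and 1 did not pass, with a median change of -1.44. Among all genes 13.0% were called lower and 9.30% higher. Acat3, a thiolase gene and close copy of Acat2, with 1 gene between them in the genome, fell from 8.87 ± 0.02 to 7.36 ± 0.07 log2 (SD, n = 3), a change of -1.51 (adjusted p = 9.78e-05, limma). Probes of near-identical genes can take up each other's transcripts, so how much of this signal is Acat2 is uncertain. Acat1, the mitochondrial thiolase gene, went from 13.21 ± 0.23 to 12.89 ± 0.06 (change -0.32, adjusted p = 0.107, limma). It passed after quantile normalization (adjusted p = 0.0277), after centring the arrays (0.0332) and without with glutamine replicate 3 (0.0161). The difference between the changes of Acat3 and Acat1 was -1.19 (95% interval -1.59 to -0.79). Idi2, a copy of Idi1, changed by -2.18 on its brighter row and by -1.99 on the other. Its change differed from that of Idi1 by -0.03 (interval -0.47 to 0.40), and since the copies are alike in sequence the 2 signals may be mixed. Aacs, which activates acetoacetate in the cytosol, fell by 1.37.

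Mvk shares its upstream region with Mmab, a gene of cobalamin metabolism that is read in the opposite direction. RefSeq places 241 bases between the starts of these genes, and the Mvk stretch printed above lies in that space. Mmab stood at 8.25, 8.21 and 7.99 log2 with glutamine and at 6.59, 6.94 and 6.76 without, and its change of -1.39 (adjusted p = 0.000709, limma) exceeded that of Mvk, with a difference of -0.31 (95% interval -0.47 to -0.15). Replicate 1 without glutamine was the lowest array of its group for Mmab, as it was for Mvk and for no other of the 7 genes.

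Beyond farnesyl diphosphate lie the sterol and the non-sterol branches. Counts of calls in both branches stand beside shares of 13.0% lower and 9.30% higher among all genes. Of 12 measured genes from squalene to cholesterol, 10 fell, 1 rose and 1 did not pass, with a median change of -1.71. The change was -2.41 for Nsdhl, a sterol dehydrogenase gene, -2.27 for Lss, which encodes lanosterol synthase, and -2.22 for Cyp51, which encodes lanosterol demethylase. The gene that rose was Erg28, which encodes a scaffold of these enzymes and is named after its values were seen (0.44, adjusted p = 0.0119, limma). It no longer passed after quantile normalization (0.0519) or centring (0.0549). Of 19 genes for non-sterol use of isoprenoids, 9 fell and 10 did not pass, with a median change of -0.26 and no change below -0.63. The 9 became 4 without with glutamine replicate 1, 3 without without glutamine replicate 2 and 4 without without glutamine replicate 3. Chml, a Rab escort gene, fell by 0.63. Pggt1b, a subunit of geranylgeranyl transferase, changed by -0.59 and Zmpste24, which encodes a protease that processes prenylated lamin A, by -0.58. The call of Pggt1b ended without with glutamine replicate 1 or 2 or without glutamine replicate 2 or 3 (adjusted p 0.0541 to 0.0756), and that of Zmpste24 without with glutamine replicate 1 (0.054) or without glutamine replicate 2 (0.0651). At the branch point itself, Fdft1, the squalene synthase gene, chosen after its values were seen, fell by 0.71. The change of Ggps1 minus that of Fdft1 was -0.14 (95% interval -0.34 to 0.06), so these genes were not separated. Fdps fell further than Fdft1 (difference -1.81, interval -2.51 to -1.12).

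**Figure D5:**
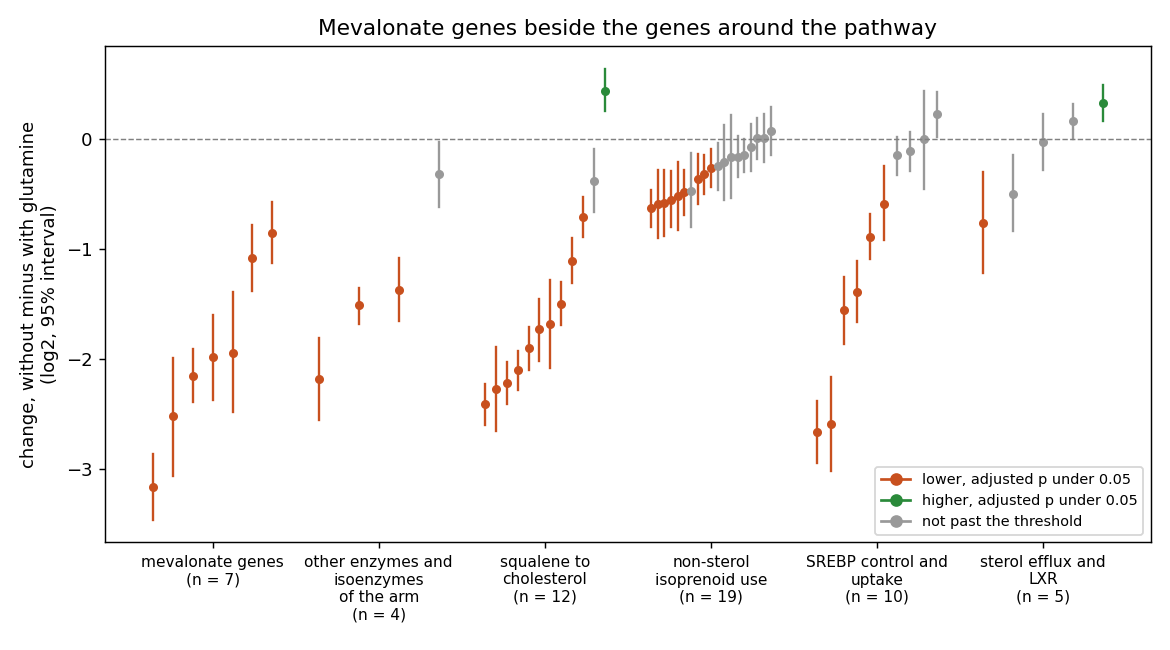
Change of each gene (log2, without minus with glutamine) with its 95% interval, for the 7 mevalonate genes and 5 groups of genes around the pathway, sorted within each group; colour gives the limma call at an adjusted p of 0.05. The 7 mevalonate genes lie between -3.16 and -0.85, the 19 non-sterol genes between -0.63 and 0.07.

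Genes listed for SREBP control and sterol uptake fell in part, and not all of them control the arm. Of 10 measured genes of this list, 6 fell and 4 did not pass, against 13.0% lower and 9.30% higher among all genes. The median change was -0.74. The 6 include Mmab, the gene of cobalamin metabolism beside Mvk. They became 5 without with glutamine replicate 1 or 2 or without glutamine replicate 2 or 3, as the call of Insig2 ended. Srebf2, which encodes SREBP-2, fell from 12.54 ± 0.08 to 11.65 ± 0.12 log2 (SD, n = 3; change -0.89, adjusted p = 0.0012, limma). Insig1, which encodes an anchor that retains the SREBP complex in the endoplasmic reticulum, fell by 2.66 on the log2 scale. The sterol carrier gene Stard4 changed by -2.59 and Tmem97, which encodes a sterol-regulated membrane protein, by -1.55. Scap, the escort of SREBP, did not pass (0.23, adjusted p = 0.108, limma). Of 5 genes of sterol efflux and LXR response, 1 fell, 1 rose and 3 did not pass, with a median change of -0.03. With so few genes, these counts cannot be set apart from the all-gene shares of 13.0% lower and 9.30% higher. The efflux pump gene Abca1 fell by 0.76, a call that ended when any 1 array without glutamine was left out (adjusted p 0.0719 to 0.11). Nr1h3, which encodes the sterol sensor LXR-alpha, rose by 0.33, a call that ended after quantile normalization (0.225), after centring (0.123) and without with glutamine replicate 2 (0.057) or without glutamine replicate 2 (0.061). Changes of the named genes of these lists that fell, and of the 7 members, stayed negative after quantile normalization, which moved the median change of all genes from 0.060 to -0.048, and after centring, which moved it to -0.095.

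The genes outside the arm whose profile was most like the mean profile of the 7 were taken by the smallest distance between profiles centred on their own mean, over 6 arrays and 30695 genes. They were Gm19505, Nampt, 4833419F23Rik, Pclaf and Sephs2, with distances of 0.23 to 0.24 and correlations of 0.995 to 0.999 with the mean profile. These correlations are mostly the difference between the groups, which all 6 points share, and are given as a description. Nampt, which encodes the rate-limiting enzyme of NAD salvage, stood at 12.36, 12.52 and 11.91 log2 with glutamine and at 10.62, 10.41 and 10.20 without. Replicate 3 was its low control array as in the arm, which the choice by likeness to the mean profile favours. Pclaf, which encodes a partner of the replication clamp, changed by -2.04 and Sephs2, which encodes a selenophosphate synthetase, by -2.0.

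The cells carried T cell signal in both groups. The T cell markers Cd3e (16.89 ± 0.07 with and 16.90 ± 0.06 without glutamine) and Cd4 (16.58 ± 0.07 and 16.44 ± 0.11) were bright in all 6 arrays. Both lie above 16 log2, as 695 to 887 values per array do, and the stretch of the scale there is unknown. Of the 6 measured T cell markers 2 rose (Cd3d by 0.88 and Cd5 by 0.51), Thy1 fell by 0.93 and 3 did not pass. After quantile normalization 1 was higher (Cd3d) and 3 were lower, as Cd5 no longer passed (adjusted p = 0.468, limma) and Cd4 (-0.52, adjusted p = 0.00637) and Cd3e (-0.42, adjusted p = 0.0328) did. The call of Cd3d ended without with glutamine replicate 2 (0.0579) or without glutamine replicate 1 (0.056) or 2 (0.0633). In the same arrays 4 of 4 measured TH17 markers fell, Il17a by 6.81. Over the whole series 3988 of 30702 genes (13.0%) were lower and 2855 (9.30%) higher. Quantile normalization gave 5252 lower and 1453 higher, and centring gave 6126 lower and 1215 higher. Among markers of other cells, 0 of 3 B cell (limma; 0 at an unadjusted p under 0.05), 1 of 5 myeloid, 1 of 3 NK and 1 of 2 CD8 genes passed, and those that passed were lower. These were Lyz2 (5.80 ± 0.33 to 4.14 ± 0.14), Klrk1 (5.40 ± 0.11 to 4.61 ± 0.12) and Cd8b1 (8.10 ± 0.25 to 7.39 ± 0.09), while Csf1r, Ncr1 and Cd8a stood between 3.43 and 3.83 in both groups, below the array medians of 4.18 to 4.38. The mean level of the myeloid list was 4.10 to 4.22 with glutamine and 3.78 to 3.89 without, that of the NK list 4.11 to 4.25 and 3.90 to 4.03, that of the CD8 list 5.87 to 6.02 and 5.51 to 5.64, and that of the B cell list 3.97 to 4.02 and 4.01 to 4.18. Their part in the falls of the mevalonate genes was not tested.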

How the data were processed

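The authors deposited log2 levels, and the submitters' processing notes name RMA and the Transcriptome Analysis Console 4.0; their options, the annotation and the build stay unstated: not given in the sources used here. Array medians were unequal, and 695 to 887 values per array exceeded 16 log2, so no fold is computed from the log2 values, whose centring and stretch stay unknown. Of 65956 rows, 31258 named 1 gene, 1492 several and 33206 none here. Symbols came from the platform annotation, updated through RefSeq (GRCm38.p6). The row with the highest mean was used per gene, giving 30702 genes with no filter.

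Each gene was tested with limma 3.58.1 in R 4.3.3 (lmFit, eBayes, two-sided, no covariate), with Benjamini-Hochberg adjustment over all genes and a threshold of 0.05. Changes are signed as the group without glutamine minus the control group, and the number of arrays limits the precision. The fit was tested on simulated data. The members, lists and naming rule were chosen with earlier results of these data known. Beside the members, the rule names Acat1, Acat3, Mmab, Srebf2 and Insig1, from each list up to 3 called genes of greatest change (the 2 brightest where fewer than 2 passed) and the 5 genes of most similar profile; not all genes it takes are reported here. Cd3e, Cd4, Csf1r, Ncr1 and Scap were chosen after their values were seen. Pair intervals were chosen after seeing the data. Alternatives were other scalings, a filter on dim genes, all rows, row means, other moderation, array weights, stricter thresholds, leaving out each array, and a block for replicate number. Figures used matplotlib 3.10.9 in Python 3.11.15.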

Additional observations from a re-analysis of the deposited data

How the results depend on the processing

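All 7 mevalonate genes were called lower, and 0 higher, under each of the 17 alternatives except the added minimum of 1 log2, which 6 passed (Ggps1 at -0.85 did not). Of 119 values of single members, 118 kept their direction and their side of the threshold and 0 reversed. Changes ranged from -3.31 to -3.06 for Hmgcs1 and from -1.0 to -0.75 for Ggps1, and the highest adjusted p of any member was 0.0351 (limma). Fdps relative to Ggps1 ranged from -1.91 to -1.52 and passed under the 15 alternatives it was run with (not with centred arrays or all rows). Over all genes, 3988 (13.0%) were called lower. These calls became 6126 after centring, 2418 with the unmoderated statistic, 2143 at an adjusted p under 0.01 and 872 with at least 1 log2. The 2855 higher calls (9.30%) became 1453 after quantile normalization, 1215 after centring, 1414 unmoderated, 800 at 0.01 and 381 with at least 1 log2. Testing all 65956 rows, of which 33206 named no gene here, gave 6773 higher, a count not comparable with those over 30702 genes. Leaving out 1 array gave 2666 to 4012 lower and 1394 to 2489 higher; the higher count moved by over 1.5 times without with glutamine replicate 2 (1436) or without glutamine replicate 1 (1873), 2 (1394) or 3 (1689). Of 50 genes around the arm, 29 were lower, 16 with at least 1 log2. Leaving out 1 array gave 22 to 30 lower. The 2 higher (Erg28 and Nr1h3) became 0 after quantile normalization, after centring, at 0.01 and with at least 1 log2, and leaving out 1 array gave 1 to 2. The causes were not tested. Whether arrays of the same replicate number share a mouse or a culture is not stated. Deviations of same-numbered arrays correlated across genes at 0.066, -0.234 and 0.276 for replicates 1, 2 and 3. Only replicate 3 correlated best with its own number, and so few arrays cannot settle whether the groups were paired. With the replicate block 7 members were lower and 0 higher, 3744 and 2548 of all genes, and 25 and 2 of the genes around the arm. The change of Fdps relative to Ggps1 stayed at -1.67.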
